A study of Mus musculus with 30 samples.

Results

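The levels of 9 genes of lymphocyte positioning were followed across spleen and lymph node of Tg26 mice: the chemokines Ccl19, Cxcl13 and Cxcl12, their receptors Ccr7, Cxcr5 and Cxcr4, and the sphingosine-1-phosphate (S1P) receptors S1pr1, S1pr2 and S1pr3. They are a given list of genes, 9 of the 19938 measured, and each was read from a probe set that the platform annotation gives to that gene alone. Each had 1 such probe set except Ccl19, which had 5 and was read from the one with the highest mean level. Ccl21, the other chemokine that binds CCR7, was not analysed here because its probe sets carry several gene symbols.

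Tg26 mice carry a pNL4-3 HIV-1 provirus from which part of gag-pol is missing, so that no infectious virus is made, and some of the animals develop lymphoma. The 30 arrays came from 15 mice, with 1 spleen and 1 lymph node array from each: 6 Tg26 mice with lymphoma, 6 asymptomatic Tg26 mice and 3 FVB/N mice without the provirus. The labels describe the animals used as heterozygous, on the FVB/N background and 5 to 12 months old, with no age per mouse and no treatment. The lymphoma colony was bred from heterozygotes with skin lesions, and batch A held mice 1 to 3 of every state while batch B held mice 4 to 6 of the lymphoma and asymptomatic states only.

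CCL19 and CXCL13 are made by stromal cells of lymphoid organs, CCL19 in the T cell zone and CXCL13 in the B cell follicle, and they draw in cells that carry CCR7 and CXCR5. CXCL12, the ligand of CXCR4, is made by stromal and endothelial cells, and its pull holds B cell precursors in bone marrow and helps to set the dark zone of germinal centres. S1P is high in blood and lymph and low inside the tissue, and lymphocytes use S1PR1 to leave along that gradient, whereas S1PR2 restrains migration of germinal centre B cells and S1PR3 takes part in placing marginal zone B cells in the mouse spleen.

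All levels below are deposited log2 values, on which a difference of 1 is a 2-fold difference in signal, and levels of different genes are not set against each other because probe sets differ in brightness. A fitted difference comes from a limma model over all 30 arrays with 6 surrogate variables. These are patterns of variation estimated with less weight on genes that differ between the groups. They can still differ between groups and take up part of a group difference. For example, 1 of them was -0.16 to -0.02 in lymphoma nodes. In the nodes of asymptomatic mice 2 to 6 it was 0.18 to 0.44, and in that of mouse 1 it was -0.12. A change was called where the p adjusted by Benjamini and Hochberg's method over 19938 genes was under 0.05. Where the fitted difference and the difference of the measured means are far apart, both are given.

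Some arrays stood apart, and cell type markers differed between the groups. Several lymph nodes carried transcripts of neighbouring organs (salivary gland, exocrine pancreas, or fat and muscle): those of lymphoma mouse 5, asymptomatic mice 2 to 6 and FVB/N mice 2 and 3. The limit for this was a mean of such genes more than 1 log2 unit above its median over all arrays. Exocrine pancreas genes also averaged 7.05 in the spleen of lymphoma mouse 1 and 7.71 and 8.94 in those of asymptomatic mice 4 and 5, against 6.02 to 6.53 in the other spleens. Without the spleens of asymptomatic mice 4 and 5, with batch as a term, the same 5 of the 9 genes were called between lymphoma and asymptomatic spleens. The spleen array of lymphoma mouse 4 carries a disease status code that contradicts its title, and it was kept as lymphoma. The mean level of 9 T cell genes was 5.82 to 7.18 in lymphoma spleens, against 9.56 to 9.79 in asymptomatic spleens, and 6.02 to 7.51 in lymphoma nodes, against 8.65 to 10.51 in asymptomatic nodes. The mean of 8 B cell precursor genes was 9.39 to 10.06 in lymphoma spleens and 9.81 to 10.26 in lymphoma nodes, against at most 6.82 in asymptomatic spleens and 7.42 in asymptomatic nodes. In whole tissue, fewer cells of a type and less RNA per cell cannot be told apart.

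With lymphoma, 5 of the 9 genes changed in spleen and 6 in lymph node. Cxcr4 rose in both tissues, and Ccr7, Cxcr5 and S1pr1 fell in both. S1pr3 fell in spleen, and Ccl19 and Cxcl12 fell in lymph node. Of all 19938 genes, 15.8% were called in spleen (limma, lymphoma against asymptomatic; 8.58% higher and 7.25% lower) and 24.1% in lymph node (11.6% higher and 12.5% lower). The median fitted difference of the 9 genes was -0.76 in spleen and -1.54 in lymph node, against -0.03 and -0.02 over all genes. No S1pr2 difference was called in either tissue, and Cxcl13 was not called in either with the surrogate variables, although it was in lymph node with batch as a term in their place.

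**Figure D1:**
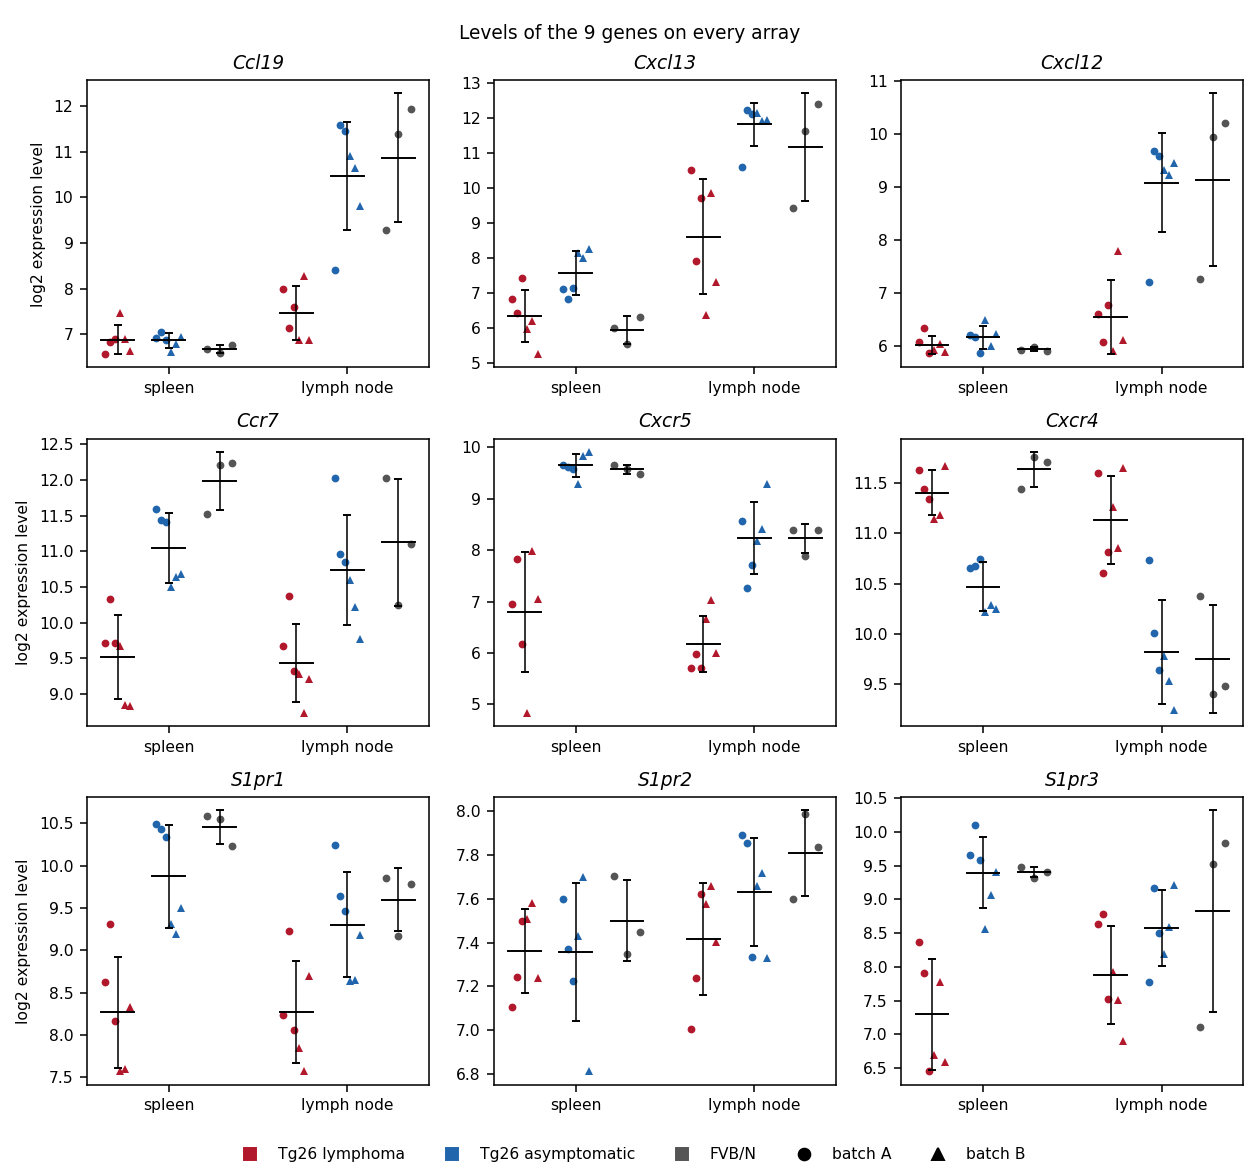
Log2 level of each of the 9 genes (y axis) on every array, for lymphoma (red), asymptomatic (blue) and FVB/N (grey) mice in spleen and lymph node (x axis); circles are batch A, triangles batch B, horizontal bars the group mean and whiskers the SD. Ccl19 in lymphoma nodes reaches 8.28 at most, below all asymptomatic nodes, and Cxcr5 in lymphoma spleens reaches 7.99, below all asymptomatic spleens.

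**Figure D2:**
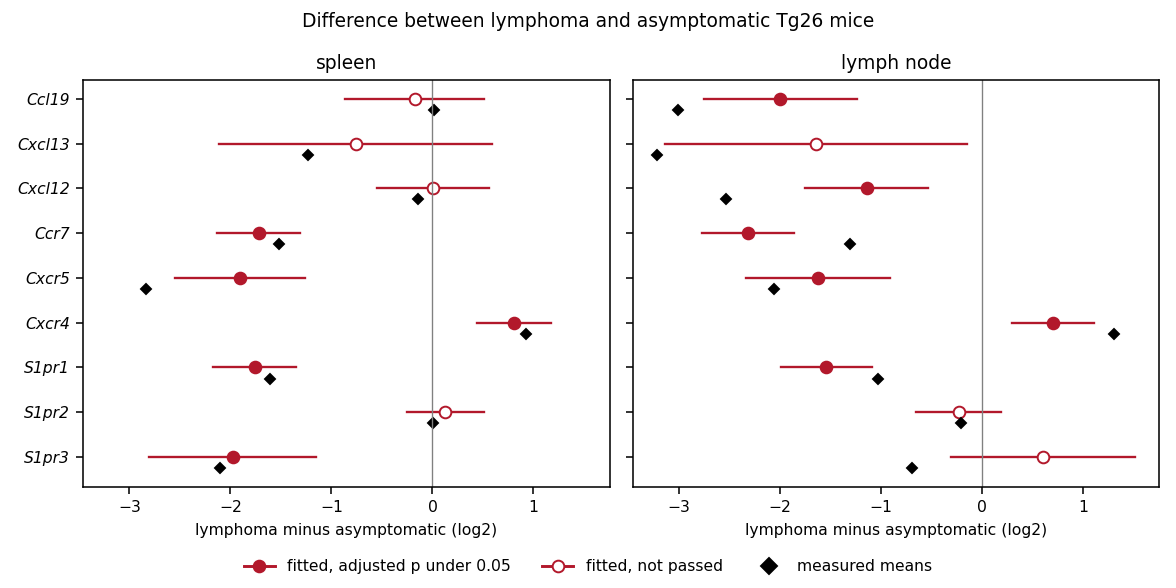
Lymphoma minus asymptomatic difference (x axis, log2) for each gene (y axis) in spleen (left) and lymph node (right): circles are fitted differences with their 95% confidence interval, filled where adjusted p was under 0.05, and diamonds are differences of the measured means. The fitted Cxcr4 difference is above 0 in both tissues, while the fitted and measured S1pr3 differences in lymph node lie on opposite sides of 0.

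The 3 chemokine genes were low in lymphoma nodes. Ccl19, whose product guides T cells and dendritic cells into the T cell zone, measured 6.87 at the lowest, 7.37 at the median and 8.28 at the highest in lymphoma nodes, against 8.42, 10.78 and 11.59 in asymptomatic nodes, while FVB/N nodes had 9.28, 11.39 and 11.95. No lymphoma node reached the lowest asymptomatic node. The measured means differed by -3.01, and the fitted difference was -2.0 (SE 0.37, limma adjusted p = 0.000257). In spleen Ccl19 lay between 6.57 and 7.47 in lymphoma mice and between 6.61 and 7.06 in asymptomatic mice, and the fitted difference of -0.18 (SE 0.33) was not called (adjusted p = 0.798). These spleen levels lay near the array medians of 6.67 to 6.89, where a fall could be hard to see. All 5 Ccl19 probe sets showed the node difference, with measured values of -2.65 to -3.12. Their levels ran together across the 30 arrays with correlations to the named one of 0.998 or more, and a pair of them had identical values; near-identical gene copies could share these probes, so they are not separate measurements.

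Cxcl13, whose product draws CXCR5-bearing B cells into follicles, measured 6.36 at the lowest, 8.81 at the median and 10.51 at the highest in lymphoma nodes, against 10.60, 12.04 and 12.23 in asymptomatic nodes, while FVB/N nodes had 9.44, 11.65 and 12.42. Its lymphoma and asymptomatic nodes did not overlap, but the nearest arrays, lymphoma mouse 1 and asymptomatic mouse 1, were close to each other. The measured means differed by -3.22. With 6 surrogate variables the difference was -1.65 (SE 0.72, limma adjusted p = 0.108) and was not called; with batch as a term in their place it was -3.22 (SE 0.56, adjusted p = 5.75e-05), where 32.8% of all genes were called. The 12 fits with surrogate variables that each left out 1 mouse gave -2.32 to -0.71 (limma adjusted p up to 0.662). Of these 12, 2 called the difference: without lymphoma mouse 3 it was -2.16 (adjusted p = 0.0332) and without lymphoma mouse 5 -2.32 (adjusted p = 0.0198). In spleen, Cxcl13 ran from 5.23 to 7.41 with a median of 6.30 in lymphoma mice, against 6.82 to 8.27 with a median of 7.56 in asymptomatic mice, and the fitted difference was -0.76 (adjusted p = 0.502).

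Within batch A the spleen difference for Cxcl13 was -0.13 (limma adjusted p = 0.950), and within batch B it was -2.33 (adjusted p = 0.0483). The asymptomatic spleens of batch B, at 7.99 to 8.27, all lay above those of batch A, at 6.82 to 7.13. Of the batch B spleens, those of asymptomatic mice 4 and 5 carried pancreas transcripts and had Cxcl13 levels of 8.14 and 7.99. That of mouse 6, under the limit for such transcripts, had 8.27. With the first 2 left out and batch as a term, the spleen difference for Cxcl13 was -0.87 (adjusted p = 0.458). Its 3 FVB/N spleens, all of batch A, at 5.52, 5.99 and 6.32, lay below every asymptomatic spleen. Of all genes, 8.03% had no overlap between these groups.

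Cxcl12, the ligand of CXCR4, measured 5.89 at the lowest, 6.34 at the median and 7.78 at the highest in lymphoma nodes, against 7.19, 9.38 and 9.67 in asymptomatic nodes, while FVB/N nodes had 7.25, 9.94 and 10.19. The groups overlapped through the node of lymphoma mouse 5 and that of asymptomatic mouse 1. The fitted difference was -1.14 (SE 0.30, limma adjusted p = 0.00579), against -2.54 between the measured means. Without asymptomatic mouse 4 it was -0.42 (adjusted p = 0.409). In spleen all 15 arrays lay between 5.86 and 6.48, and no difference was called (0.01, SE 0.27, adjusted p = 0.992). These spleen levels lay below the array medians of 6.67 to 6.89, where a fall could be hard to see.

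Fibroblast genes also had lower mean levels in lymphoma than in asymptomatic nodes. The mean of 10 fibroblast genes (Thy1 among them, which T cells also express) was 6.13 to 7.57 in lymphoma nodes, against 7.96 to 9.0 in asymptomatic nodes and 7.41 to 8.98 in FVB/N nodes. Of these 10, Dcn, Lum, Pdgfra, Pdpn and Thy1 were called lower in lymphoma nodes and none was called higher. Of 10 blood endothelial genes 8 were called lower there, of 7 follicular dendritic cell genes 4 were lower (Clu, Cr2, Fcer2a and Mfge8) and Bst1 was higher, and of 6 mature follicular B cell genes 4 were lower and 1 higher. Of 7 migratory and mature dendritic cell genes, whose cells carry CCR7, 6 were called lower, and of 5 lymphatic endothelial genes 3 were lower and Reln was higher. Of 8 neutrophil genes 6 were called higher. Of 12 fat and muscle genes, 7 (Adipoq, Cidea, Cidec, Fabp4, Lep, Pck1 and Plin1) were called lower and none higher, with a median fitted difference of -1.65. The node of asymptomatic mouse 1, with 7.96 for the fibroblast genes, and that of FVB/N mouse 1, with 7.41, had the lowest Ccl19, Cxcl13 and Cxcl12 of their groups. Neither passed the limit for transcripts of neighbouring organs. Fat and muscle genes still averaged 6.78 in the node of asymptomatic mouse 1, against at most 6.40 in lymphoma nodes. The node of asymptomatic mouse 6 had the next lowest fibroblast mean of its group, 8.16. Its Ccl19 of 9.82 was also the next lowest, below the 10.65 to 11.59 of asymptomatic mice 2 to 5. Its Cxcl13 of 11.96 and Cxcl12 of 9.44 lay within the range of those mice. When the 8 nodes with such transcripts were left out, 5 lymphoma nodes stood against asymptomatic mouse 1 alone, assumed to vary like the other groups; with batch as a term Ccl19 then differed by -1.05 (adjusted p = 0.0402), Cxcl12 by -0.86 (adjusted p = 0.0345) and Cxcl13 by -1.95 (adjusted p = 0.244). The part of these cell types or of neighbouring tissue in these differences was not tested beyond these values.

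**Figure D3:**
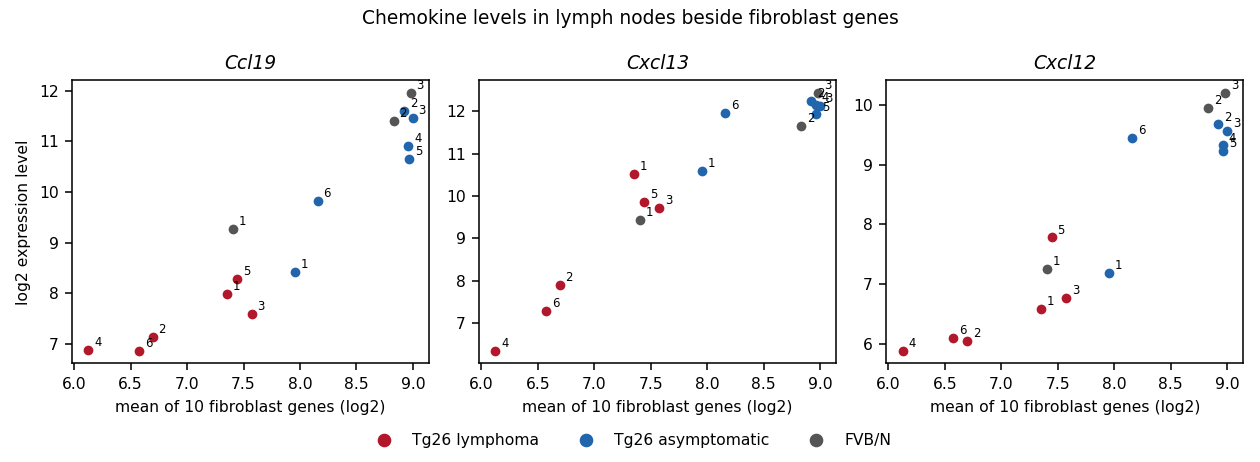
Log2 level of Ccl19, Cxcl13 and Cxcl12 (y axis) against the mean log2 level of 10 fibroblast genes (x axis) in the 15 lymph nodes; colours give lymphoma (red), asymptomatic (blue) and FVB/N (grey) mice, and the digit beside each point is the mouse number within its state. The lymphoma nodes lie at the low end of both axes, the node of FVB/N mouse 1 lies among them except in Ccl19, and the node of asymptomatic mouse 1 lies next to them.

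The promoters of the 3 chemokine genes are shown because the genes were low in the same nodes, and because a kappa-B motif of the Cxcl13 promoter is known in mouse as a target of RELB with p52, the pair of factors released downstream of the lymphotoxin beta receptor. Each run is 300 bases on the gene's own strand, from 250 bases before the transcript start to 50 after it, taken from RefSeq (GRCm38.p6): Ccl19 at chr4:42756316-42756615 on the minus strand, Cxcl13 at chr5:95956689-95956988 on the plus strand and Cxcl12 at chr6:117168285-117168584 on the plus strand. Capitals mark matches on either strand to GGG and TTTG with any 3 bases between them and, in Cxcl13, to TATAAA.
Ccl19: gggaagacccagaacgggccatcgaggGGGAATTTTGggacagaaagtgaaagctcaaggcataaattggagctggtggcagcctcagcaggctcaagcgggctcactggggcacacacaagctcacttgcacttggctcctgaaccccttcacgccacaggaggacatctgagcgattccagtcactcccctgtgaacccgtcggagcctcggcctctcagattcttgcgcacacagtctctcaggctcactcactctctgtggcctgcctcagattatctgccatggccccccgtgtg
Cxcl13: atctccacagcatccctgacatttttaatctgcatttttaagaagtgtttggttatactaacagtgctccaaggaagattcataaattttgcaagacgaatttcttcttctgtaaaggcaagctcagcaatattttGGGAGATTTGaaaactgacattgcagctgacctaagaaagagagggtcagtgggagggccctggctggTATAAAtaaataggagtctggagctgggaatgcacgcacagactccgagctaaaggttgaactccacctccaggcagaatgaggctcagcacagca
Cxcl12: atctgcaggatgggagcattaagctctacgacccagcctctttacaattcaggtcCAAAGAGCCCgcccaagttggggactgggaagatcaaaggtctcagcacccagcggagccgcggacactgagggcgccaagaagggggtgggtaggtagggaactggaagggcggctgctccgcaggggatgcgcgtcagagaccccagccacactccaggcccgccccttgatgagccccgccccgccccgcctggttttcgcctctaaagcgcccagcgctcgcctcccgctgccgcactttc
The Cxcl13 run holds GGGAGATTTG beginning 114 bases before the start, and TATAAA 46 bases before it. The Ccl19 run holds GGGAATTTTG beginning 223 bases before the start, and the Cxcl12 run holds GGGCTCTTTG on the opposite strand, 195 bases before the start. This spaced motif was chosen after the sequences had been seen, so its matches in the chemokine promoters are not a test. It occurred on either strand in 4.47% of 32851 promoters of this length, and TATAAA in 13.6%. Promoters of Cxcr4, S1pr2 and S1pr3 were also at hand and held no match to the spaced motif. Those of Ccr7, Cxcr5 and S1pr1 were not used here. Whether RELB and p52 had a part in the chemokine levels was not tested.

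The chemokine receptors Ccr7 and Cxcr5 fell with lymphoma and Cxcr4 rose. Ccr7, which guides naive T cells and activated B cells towards the T cell zone, measured 8.83 at the lowest, 9.69 at the median and 10.34 at the highest in lymphoma spleens, against 10.50, 11.04 and 11.59 in asymptomatic spleens, while FVB/N spleens had 11.52, 12.20 and 12.24. Lymphoma and asymptomatic spleens did not overlap, and the fitted difference was -1.72 (SE 0.20, limma adjusted p = 1.53e-06). In nodes it ran from 8.74 to 10.37 with a median of 9.30 in lymphoma mice, against 9.77 to 12.03 with a median of 10.73 in asymptomatic mice, and these groups overlapped. The fitted node difference of -2.32 (SE 0.22, adjusted p = 4.99e-08) was larger in size than that of the measured means, -1.31. The spleens of asymptomatic mice also differed by batch, at 11.41 to 11.59 in batch A and 10.50 to 10.68 in batch B; the difference with lymphoma was -1.56 within batch A and -1.49 within batch B (adjusted p = 0.0164 and 0.00461).

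Cxcr5, the CXCL13 receptor of mature B cells and follicular helper T cells, measured 4.84 at the lowest, 7.0 at the median and 7.99 at the highest in lymphoma spleens, against 9.28, 9.64 and 9.91 in asymptomatic spleens, while FVB/N spleens had 9.47, 9.58 and 9.65. No lymphoma spleen came within 1 log2 unit of the lowest asymptomatic spleen. The measured means differed by -2.84, and the fitted difference was -1.91 (SE 0.31, limma adjusted p = 9.88e-05). In nodes Cxcr5 ran from 5.70 to 7.04 with a median of 5.99 in lymphoma mice, against 7.27 to 9.29 with a median of 8.29 in asymptomatic mice, and FVB/N nodes had 7.89, 8.39 and 8.39. The node groups did not overlap either, and the fitted difference was -1.63 (SE 0.34, adjusted p = 0.00103). It missed the threshold without lymphoma mouse 1 (-1.11, adjusted p = 0.0572) or asymptomatic mouse 1 (-0.99, adjusted p = 0.0868). Lymphoma spleens spread widely for this gene (SD 1.16, n = 6) beside asymptomatic spleens (SD 0.22, n = 6). The lowest value belonged to the spleen of lymphoma mouse 4, and without that array the spleen difference was -2.02 (adjusted p = 1.01e-05).

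Cxcr4, the CXCL12 receptor that B cell precursors and many other leukocytes carry, was the one gene of the 9 called higher. It measured 11.14 at the lowest, 11.40 at the median and 11.67 at the highest in lymphoma spleens, against 10.22, 10.47 and 10.74 in asymptomatic spleens. These groups did not overlap, and the fitted difference was 0.80 (SE 0.18, limma adjusted p = 0.00231). The 3 FVB/N spleens, at 11.44, 11.71 and 11.76, lay within or above the lymphoma range and above every asymptomatic spleen. In nodes Cxcr4 ran from 10.61 to 11.65 with a median of 11.06 in lymphoma mice, against 9.25 to 10.74 with a median of 9.71 in asymptomatic mice. Only asymptomatic mouse 1 reached the lymphoma range. The fitted node difference was 0.70 (SE 0.20, adjusted p = 0.0101), against 1.31 between the measured means. It was 0.42 (adjusted p = 0.191) without lymphoma mouse 1, 0.55 (adjusted p = 0.232) without asymptomatic mouse 4, and 0.48 (adjusted p = 0.409) when nodes with neighbouring-organ transcripts were left out. FVB/N nodes had 9.41, 9.49 and 10.37, all below the lowest lymphoma node.

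Among the S1P receptors, S1pr1 fell in both tissues and S1pr3 in spleen. S1pr1, the exit receptor of lymphocytes, measured 7.57 at the lowest, 8.25 at the median and 9.31 at the highest in lymphoma spleens, against 9.19, 9.92 and 10.49 in asymptomatic spleens, while FVB/N spleens had 10.23, 10.55 and 10.59. Only lymphoma mouse 2 reached the asymptomatic range, and the fitted difference was -1.76 (SE 0.20, limma adjusted p = 9.57e-07). Asymptomatic spleens measured 10.34 to 10.49 in batch A and 9.19 to 9.50 in batch B, and within the batches the differences were -1.72 (adjusted p = 0.00166) and -1.50 (adjusted p = 0.00814). In nodes S1pr1 ran from 7.57 to 9.23 with a median of 8.14 in lymphoma mice, against 8.64 to 10.24 with a median of 9.32 in asymptomatic mice, and the groups overlapped. The fitted node difference was -1.54 (SE 0.22, adjusted p = 1.23e-05), against -1.03 between the measured means. Without lymphoma mouse 3 the fitted value was -1.03 (adjusted p = 0.000273), and within batch B the measured difference of -0.78 was not called (adjusted p = 0.0807).

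S1pr2, the receptor that confines germinal centre B cells, stayed within a narrow range. It ran from 7.11 to 7.58 with a median of 7.37 in lymphoma spleens, against 6.81 to 7.70 with a median of 7.40 in asymptomatic spleens. In nodes the range was 7.0 to 7.66 with a median of 7.49 in lymphoma mice, against 7.33 to 7.89 with a median of 7.69 in asymptomatic mice. The fitted differences were 0.13 in spleen (95% interval -0.25 to 0.51) and -0.23 in lymph node (95% interval -0.65 to 0.19), with limma adjusted p of 0.722 and 0.474. S1pr2 levels lay not far above the array medians of 6.67 to 6.89, where a fall could be hard to see.

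S1pr3, which takes part in placing marginal zone B cells and is also expressed by endothelium, measured 6.45 at the lowest, 7.23 at the median and 8.37 at the highest in lymphoma spleens, against 8.57, 9.49 and 10.10 in asymptomatic spleens, while FVB/N spleens had 9.32, 9.41 and 9.48. Every lymphoma spleen lay below every asymptomatic spleen, and the fitted difference was -1.98 (SE 0.40, limma adjusted p = 0.000993). In nodes it ran from 6.89 to 8.79 with a median of 7.72 in lymphoma mice, against 7.78 to 9.22 with a median of 8.55 in asymptomatic mice, and FVB/N nodes had 7.11, 9.52 and 9.84. The node groups overlapped. There the fitted difference was 0.60 (SE 0.44, adjusted p = 0.373) while the measured means differed by -0.70, so that no direction is given for S1pr3 in lymph node. The test of whether the lymphoma difference itself differed between node and spleen gave 2.58 for S1pr3 (SE 0.55, adjusted p = 0.0251), the one gene of the 9 called in that test, in which 0.572% of all genes were called. With batch as a term, where 3.99% of all genes were called, the same quantity was 1.40 (SE 0.55, adjusted p = 0.146), and without asymptomatic mouse 2 the fitted value was 2.74 (adjusted p = 0.0531). For Ccl19 the difference between the tissues was -1.82 with surrogate variables (SE 0.45, adjusted p = 0.0697) and -3.03 with batch as a term and each mouse as a random block (adjusted p = 0.00204), a fit that called 6.94% of all genes. For Cxcl12 it was -1.15 with surrogate variables (adjusted p = 0.167) and -2.39 with batch as a term (adjusted p = 0.0149). The spleen levels of Ccl19 and Cxcl12 were low, as given above, which limits what these differences between the tissues can show.

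Counted by overlap alone, 4 of the 9 genes (Ccr7, Cxcr5, Cxcr4 and S1pr3) had lymphoma and asymptomatic spleens whose ranges did not overlap, as had 9.54% of all genes. In lymph node it was 3 of the 9 (Ccl19, Cxcl13 and Cxcr5), beside 10.8% of all genes.

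Set side by side within each mouse, the 3 chemokine genes separated lymph node from spleen in mice without lymphoma. In lymphoma mice the node level minus the spleen level of Ccl19 was -0.59 at the lowest, 0.51 at the median and 1.41 at the highest, that of Cxcl13 was 0.39, 2.19 and 3.68, and that of Cxcl12 was -0.26, 0.37 and 1.76, and the node was higher in 5, 6 and 4 of the 6 mice. In asymptomatic mice the same within-mouse differences were 1.49, 4.08 and 4.57 for Ccl19, 3.49, 3.97 and 5.41 for Cxcl13, and 0.99, 3.22 and 3.71 for Cxcl12. All 6 asymptomatic and all 3 FVB/N mice had the higher level in the node for each of these genes.

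The node against spleen test, with the tissues treated as separate arrays, called none of the 9 genes in lymphoma mice by limma, with Ccl19, Cxcl13 and Cxcl12 under 0.05 before adjustment, where 0.0552% of all genes were called. The largest fitted difference among them was that of Cxcl13, 2.33 (adjusted p = 0.0821). The test called 4 of the 9 in asymptomatic mice, where 5.62% of all genes were called: Ccl19 (2.37, limma adjusted p = 0.000640), Cxcl13 (3.21, adjusted p = 0.0111) and Cxcl12 (1.67, adjusted p = 0.00201) higher in node, and S1pr3 lower (-1.99, adjusted p = 0.0100). Cxcl13 missed the threshold there without asymptomatic mouse 1 (2.70, adjusted p = 0.0714) or mouse 4 (2.73, adjusted p = 0.0655). The measured means of asymptomatic nodes and spleens differed by 3.61 for Ccl19, 4.26 for Cxcl13, 2.92 for Cxcl12 and -0.82 for S1pr3.

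In FVB/N mice 4 of the 9 were called, against 4.27% of all genes: Ccl19 (2.55, limma adjusted p = 0.00152), Cxcl13 (3.86, adjusted p = 0.0108) and Cxcl12 (1.62, adjusted p = 0.00903) higher in node and Cxcr4 lower (-1.33, adjusted p = 0.00172). Cxcl13 was not called when any 1 of the 3 FVB/N mice was left out, at 3.55 to 4.85 (adjusted p up to 0.0731), nor was Cxcl12 without mouse 3 (1.28, adjusted p = 0.0821).

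With each mouse as a random block and with batch, not surrogate variables, in the model, 20% of all genes were called in the node against spleen test of asymptomatic mice. It also called Cxcr5 (-1.41, limma adjusted p = 0.00435), Cxcr4 (-0.65, adjusted p = 0.0154) and S1pr1 (-0.57, adjusted p = 0.0423), all lower in node, and no longer called S1pr3 (-0.82, adjusted p = 0.104). Measured within each mouse, S1pr3 was higher in the node of 5 of 6 lymphoma mice and lower in the node of 6 of 6 asymptomatic mice, with median differences of 0.59 in lymphoma and -0.70 in asymptomatic mice. In FVB/N mice it was higher in the node of 2 of 3, with a median difference of 0.20. When the nodes with neighbouring-organ transcripts were left out, asymptomatic mouse 1 alone stood for the asymptomatic nodes, and of the 9 genes Ccl19 kept its call (1.46, adjusted p = 0.0352).

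**Figure D4:**
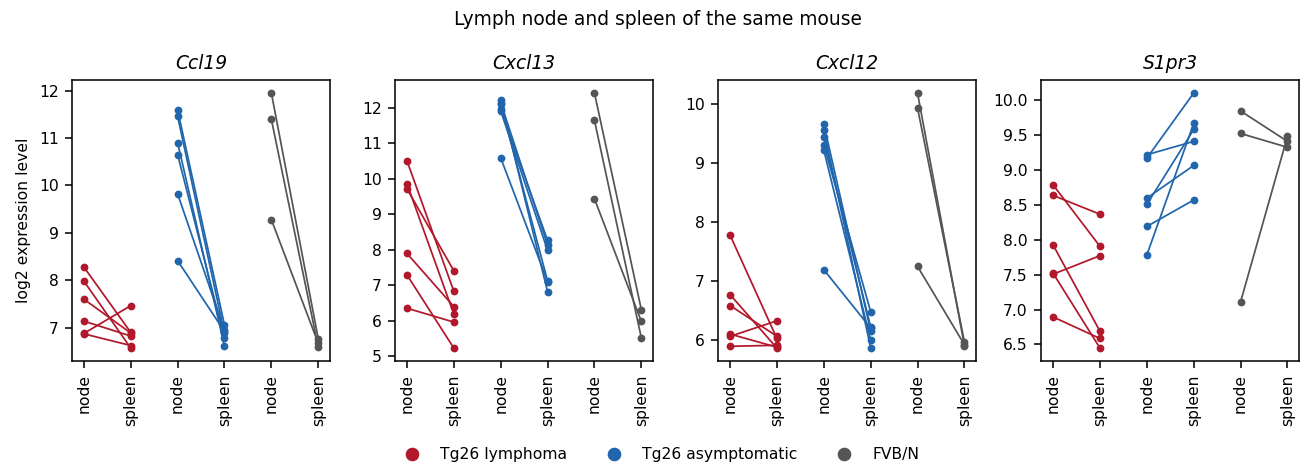
Log2 level (y axis) of Ccl19, Cxcl13, Cxcl12 and S1pr3 in lymph node and spleen (x axis), with a line joining the arrays of each mouse, for lymphoma (red), asymptomatic (blue) and FVB/N (grey) mice. For Ccl19 the lines are shallow in lymphoma mice, where the median within-mouse difference is 0.51, and fall steeply from node to spleen in asymptomatic and FVB/N mice.

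Compared with the background strain, asymptomatic Tg26 mice differed in 1 of the 9 genes in spleen and in none in lymph node. Asymptomatic spleens had less Cxcr4 than FVB/N spleens (-0.97, SE 0.17, limma adjusted p = 0.00970), where 0.617% of all genes were called. Since FVB/N mice were all in batch A, the comparison within it is the direct one: the 3 asymptomatic spleens there measured 10.66, 10.68 and 10.74, against 11.44, 11.71 and 11.76 in FVB/N spleens, a difference of -0.94 that was not called in a fit of batch A alone (adjusted p = 0.723). With batch as a term the difference was -1.04 (adjusted p = 0.120), and with surrogate variables it missed the threshold without asymptomatic mouse 2 (adjusted p = 0.0537), FVB/N mouse 2 (adjusted p = 0.137) or FVB/N mouse 3 (adjusted p = 0.156). Cxcl13 was higher by 1.71 in asymptomatic spleens and was not called (adjusted p = 0.388). Its groups did not overlap, as was so for 8.03% of all genes. Within batch A its mean was 7.02 in asymptomatic and 5.94 in FVB/N spleens, while the asymptomatic spleens of batch B averaged 8.13. In lymph node, where 1.94% of all genes were called, none of the 9 was called by limma and none had p under 0.05 before adjustment.

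Lymphoma spleens set against FVB/N spleens gave calls for 4 of the 9 genes, all lower, where 12.3% of all genes were called, 5.25% lower: Ccr7 (-2.26, limma adjusted p = 1.34e-06), Cxcr5 (-1.99, adjusted p = 0.000792), S1pr1 (-1.95, adjusted p = 6.59e-06) and S1pr3 (-1.70, adjusted p = 0.0219). S1pr3 missed the threshold without FVB/N mouse 2 or mouse 3 (adjusted p = 0.0556 and 0.0758). Cxcr4, which was higher in lymphoma than in asymptomatic spleens, differed from FVB/N spleens by -0.17 (adjusted p = 0.725). In nodes 6 of the 9 were called, where 16.6% of all genes were: Ccl19 (-2.05, adjusted p = 0.00186), Cxcl12 (-1.03, adjusted p = 0.0477), Ccr7 (-2.28, adjusted p = 1.59e-06), Cxcr5 (-1.59, adjusted p = 0.00839) and S1pr1 (-1.53, adjusted p = 0.000182) lower, and Cxcr4 (0.90, adjusted p = 0.00886) higher. Cxcl12 lost that call in 5 of the 9 fits that each left out 1 lymphoma or FVB/N mouse (adjusted p up to 0.298), Cxcr5 without lymphoma mouse 1 (adjusted p = 0.0905), and Cxcr4 without lymphoma mouse 1 (adjusted p = 0.132) or FVB/N mouse 3 (adjusted p = 0.0983). The measured means of lymphoma and FVB/N nodes differed by -3.41 for Ccl19, -2.59 for Cxcl12 and -1.69 for Ccr7. For Cxcr5, S1pr1 and Cxcr4 they differed by -2.04, -1.33 and 1.38. Those of the spleens differed by -2.47 for Ccr7, -2.76 for Cxcr5, -2.19 for S1pr1 and -2.11 for S1pr3. The lymphoma arrays are the same as in the comparison with asymptomatic mice, so the comparisons with FVB/N mice are not independent results.

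Placed in order of their mean levels, the groups differed between the genes. For Ccl19 the order was FVB/N node, asymptomatic node, lymphoma node, lymphoma spleen, asymptomatic spleen and FVB/N spleen, and only the asymptomatic and lymphoma nodes were neighbours without overlap. Cxcl13 and Cxcl12 also had the 3 node groups on top and FVB/N spleen last, but all their neighbouring groups overlapped. For Cxcr5 the asymptomatic and FVB/N spleens stood highest, followed by the asymptomatic and FVB/N nodes, and lymphoma spleen and lymphoma node came last. The FVB/N spleens lay above every asymptomatic node, whereas the lowest asymptomatic spleen, at 9.28, lay just below the highest asymptomatic node, at 9.29. Ccr7, S1pr1 and S1pr3 had FVB/N spleen first and the lymphoma groups in the last places, with overlap between all neighbours. For Cxcr4 the FVB/N spleens, lymphoma spleens and lymphoma nodes came before the asymptomatic spleens, asymptomatic nodes and FVB/N nodes, again with overlap between neighbours.

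Genes of the same pathways were read from 5 lists, with the counts for lymphoma against asymptomatic mice at the same threshold. Over all genes, 20.1% were called in spleen and 32.8% in lymph node with batch as a term, beside the 15.8% and 24.1% with surrogate variables. Of 11 other homing receptor and chemokine genes, 4 fell in spleen and 7 in lymph node, and none rose. Cxcr3, the receptor for interferon-induced chemokines on effector T cells, measured 6.93 ± 0.38 in lymphoma spleens and 8.93 ± 0.37 in asymptomatic spleens (SD, n = 6 each), a fitted difference of -1.54 (limma adjusted p = 4.25e-06). Gpr183, the oxysterol receptor that leads B cells to the follicle edge, differed by -0.78 in spleen (adjusted p = 0.00638) and -1.17 in node (adjusted p = 0.000247). Ccr6, the CCL20 receptor, differed by -0.82 in spleen (adjusted p = 0.000198) and -0.95 in node (adjusted p = 7.46e-05). The sizes were larger with batch as a term, at -1.83 for Gpr183 in spleen and -2.24 and -1.49 for Ccr6 in spleen and node. Ackr3, a scavenging receptor for CXCL12, differed by -0.54 in spleen (adjusted p = 0.0450), and Hsd3b7, which degrades the GPR183 ligand, by -0.77 in node (adjusted p = 0.000603). The median of the list was -0.43 in spleen and -0.77 in node.

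Of 12 other S1P receptor and S1P metabolism genes, 3 rose and 2 fell in spleen, and 1 rose and 1 fell in node. Spns2, which exports S1P from endothelium, fell by 0.74 in spleen (limma adjusted p = 0.00627) and by 0.68 in node (adjusted p = 0.0172), where batch as a term gave -1.48. S1pr5, a receptor of natural killer cells, fell by 0.73 in spleen (adjusted p = 0.0254). Plpp2, a lipid phosphate phosphatase, rose in both tissues, by 0.89 in spleen (adjusted p = 0.0242) and 1.68 in node (adjusted p = 0.000160), or 0.83 in node with batch as a term. Plpp1, a phosphatase of the same family, rose by 0.97 in spleen with surrogate variables (adjusted p = 0.00637) but not with batch as a term (0.37, adjusted p = 0.602). Mfsd2b, the S1P exporter of red cells and platelets, was the third to rise in spleen (1.03, adjusted p = 0.0447), again not with batch as a term (0.16, adjusted p = 0.868). With batch as a term, the counts for this list were 1 higher and 4 lower in spleen and 1 higher and 5 lower in node.

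Of 17 signalling genes and regulators of these receptors, 3 rose and 3 fell in spleen, and 4 rose and 7 fell in node, or 4 and 2 in node with batch as a term. Rgs16 and Rgs13 both encode regulators that switch off G protein signalling, and they moved in opposite directions. Rgs16 measured 9.24 ± 0.96 in lymphoma spleens and 7.16 ± 0.38 in asymptomatic spleens (SD, n = 6 each), a fitted difference of 2.62 (limma adjusted p = 1.07e-05). Rgs13, which is abundant in germinal centre B cells, measured 4.40 ± 0.23 in lymphoma spleens and 6.82 ± 0.44 in asymptomatic spleens, a fitted difference of -2.44 (adjusted p = 0.000307), and differed by -2.16 in node (adjusted p = 0.00180). Cd69, whose product removes S1PR1 from the cell surface, rose by 1.16 in spleen (adjusted p = 0.00131) and 1.23 in node (adjusted p = 0.00133). Its spleen value was 0.71 with batch as a term (adjusted p = 0.0372), and 0.57 and not called when the 2 spleens with pancreas transcripts were left out as well (adjusted p = 0.193). Arhgef1, which relays G12 and G13 signals of S1PR2, differed by -0.51 in spleen (adjusted p = 0.00788) and -0.87 in node (adjusted p = 7.19e-05), and Gna12 by 0.82 in node (adjusted p = 0.000249). With batch as a term the node differences of Arhgef1 and Gna12 were -0.24 and 0.26 and were not called (adjusted p = 0.393 and 0.239). Klf2, the factor that switches on S1pr1 in T cells, was among the 7 that fell in node (-0.89, adjusted p = 0.00903), but not with batch as a term (-0.35, adjusted p = 0.195).

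Of 13 genes of lymphotoxin and organiser signalling, which maintain CCL19, CXCL13 and CXCL12 production in stroma, 5 fell and 1 rose in spleen, and 7 fell and none rose in node. Relb, Nfkb2, Map3k14 and Tnfrsf1a fell in both tissues. Relb, the factor that pairs with p52, measured 7.47 ± 0.25 in lymphoma nodes and 8.32 ± 0.13 in asymptomatic nodes (SD, n = 6 each), a fitted difference of -0.96 (limma adjusted p = 8.60e-05). Nfkb2, the gene of the p52 precursor, differed by -0.86 in node (adjusted p = 1.93e-05) and -0.85 in spleen (adjusted p = 8.91e-06). Map3k14, the kinase that triggers its processing, differed by -0.59 in node (adjusted p = 0.000119) and -0.51 in spleen (adjusted p = 0.000324), or -0.33 and -0.80 with batch as a term. Tnfrsf1a, a receptor for tumour necrosis factor and lymphotoxin alpha, differed by -1.71 in node (adjusted p = 2.55e-06) and -1.0 in spleen (adjusted p = 0.000734). Ltb, a chain of lymphotoxin made by lymphocytes, was also called lower in both tissues. With batch as a term 3 genes of the list were called higher and 8 lower in node.

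Of 16 adhesion and high endothelial venule genes, 3 fell and 1 rose in spleen, and 7 fell and 1 rose in node. Itgb7, the integrin chain of gut-homing lymphocytes, measured 7.51 ± 0.46 in lymphoma spleens and 9.98 ± 0.10 in asymptomatic spleens (SD, n = 6 each), a fitted difference of -2.04 (limma adjusted p = 7.91e-08), and differed by -2.67 in node (adjusted p = 3.81e-09). Itga4, the integrin chain that pairs with it, rose by 0.86 in spleen (adjusted p = 0.000382), or 0.30 with batch as a term (adjusted p = 0.335). Selplg, the selectin ligand PSGL-1, differed by -0.70 in spleen (adjusted p = 0.00147) and -1.27 in node (adjusted p = 2.78e-06), or -0.62 in node with batch as a term. Itgb2 differed by -0.83 in node (adjusted p = 1.82e-05), and Glycam1, made by high endothelial venules, was called lower in node.

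**Figure D5:**
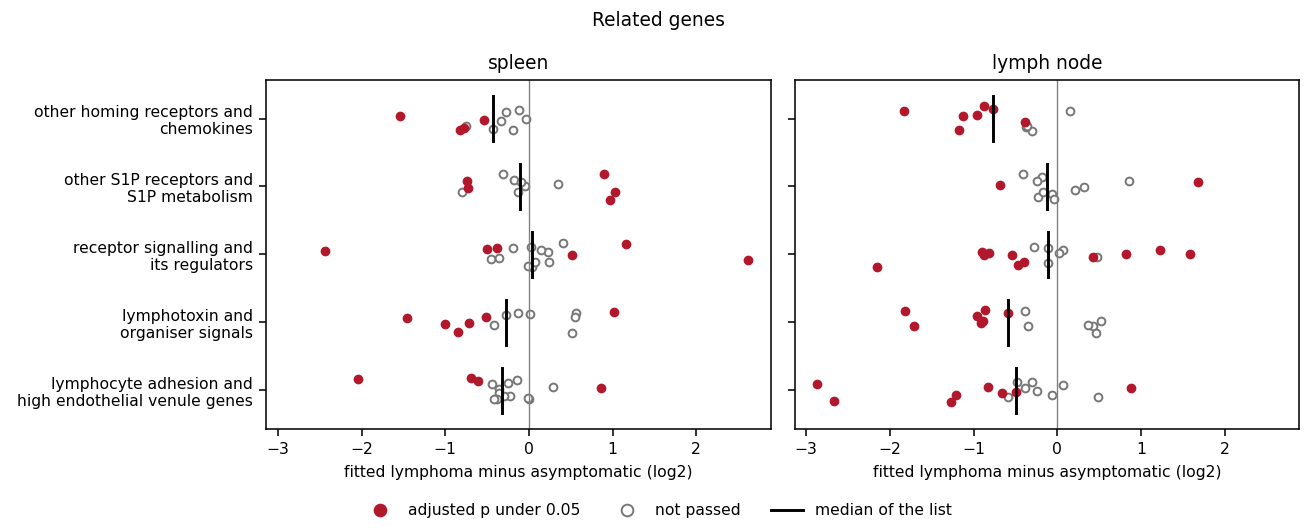
Fitted lymphoma minus asymptomatic difference (x axis, log2) of each measured gene in the 5 lists (y axis), in spleen (left) and lymph node (right); filled circles passed adjusted p under 0.05, open circles did not, and the black bar is the list's median. The medians of the homing receptor, organiser signal and adhesion lists lie below 0 in both tissues, and in node that of the homing receptors is -0.77.

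The genes whose levels ran most like each member's across the 30 arrays were found by Pearson's correlation; arrays share group and tissue, so the correlation of deviations from the group means is given with it. Those deviations still hold shifts between the batches. Ccl19 was most like Osmr (0.98 over all arrays, 0.94 for the deviations), Dclk1 and Lyve1. Cxcl13 was most like Sparc (0.97 and 0.86), Bgn and Igfbp7, and Cxcl12 most like Rbms3 (0.98 and 0.93), Abi3bp and Antxr1. For Ccr7 it was Dusp10 (0.94 and 0.81), Peli1 and Fam189b, and for Cxcr5 the B cell surface gene Ms4a1 (0.97 and 0.90), Inpp5f and Trim7. Cxcr4 was most like Dusp5 (0.92 and 0.74), Irf4 and Taf5. S1pr1 was most like Trim26 (0.93 and 0.855), Ly9 and Fam160a2, and S1pr3 most like Bmp2k (0.90 and 0.84), Rhbdf1 and Rab11fip2. S1pr2 had no close match, with Lrrn4cl at 0.74 and 0.62 ahead of Apod and Itgb8.

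Among the 9 genes themselves, Ccl19 and Cxcl12 ran most closely together (0.97 over the 30 arrays, 0.86 for the deviations from group means), and Ccr7 ran with S1pr1 (0.91 and 0.74). Taken from the means of each group and batch, the deviations correlated at 0.90 for Ccl19 and Cxcl12 but at 0.46 for Ccr7 and S1pr1. Cxcr4 ran opposite to all 3 chemokine genes, at -0.83 and -0.65 with its ligand Cxcl12, -0.81 and -0.44 with Cxcl13, and -0.79 and -0.50 with Ccl19. For the other receptor and ligand pairs, Ccr7 and Ccl19 gave 0.10 and -0.35, and Cxcr5 and Cxcl13 gave -0.02 and -0.13.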

How the data were processed

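The authors deposited log2 expression levels per probe set of Affymetrix Mouse Gene 1.0 ST arrays, normalized at probe level by fRMA (a frozen form of robust multiarray averaging). The labels' design text gives that step, and names moderated linear models, surrogate variable analysis and Benjamini-Hochberg correction. Software versions and the number of surrogate variables are not given in the sources used here. The values ran from 2.07 to 14.43, with array medians of 6.67 to 6.89. Of 35557 probe sets, 1 had missing values; of the others 21789 had 1 gene symbol in the platform annotation, 1621 carried more than 1 and 12146 had no entry. Of the 21789, 21698 matched a RefSeq gene by Entrez identifier, for current symbols. Of several probe sets of 1 gene (999 genes) the one with the highest mean was used, and no gene was filtered out.

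All 30 arrays entered 1 fit in limma 3.58.1 (R 4.3.3) with 6 groups and 6 surrogate variables. Genes that differed between the groups had less weight in computing these, which does not keep the variables apart from the groups. The computation (5 iterations, number from 20 permutations of residuals at a limit of 0.1) was tested on simulated data. Nothing states how far mice of 1 group are independent (litter, cage), and the number of arrays limits the precision. The 9 genes and all gene lists were chosen with earlier results of these data known, so no list is independent evidence. Named from each related list were up to 4 measured genes with the smallest adjusted p under 0.05 in each tissue, and from the correlations the 3 highest per member; Mfsd2b, Klf2, Ltb and Glycam1, and marker genes given by name, complete a count and were named after their values were seen. Other settings were batch as a term, no surrogate variables, tissue scores, a low-value filter, quantile normalization, the mean of all probe sets, single batches, left-out arrays and replicate blocks.

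Node and spleen arrays of 1 number come from the same animal per the labels, and their deviations from the group means correlated at 0.292 to 0.675 in lymphoma mice, 0.138 to 0.503 in asymptomatic mice and -0.01 to 0.05 in FVB/N mice. Same-numbered lymphoma and asymptomatic spleens correlated at 0.228 to 0.497, and the nodes at 0.0841 to 0.237. These deviations still hold shifts between the batches, which same-numbered mice share, and no label pairs mice of different states. Mouse number as a fixed block, used also against FVB/N, is therefore only another setting and does not stand for pairs. The left-out node and spleen arrays with neighbouring-organ transcripts and the mouse block with surrogate variables were alternatives chosen after seeing the data.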

Additional observations from a re-analysis of the deposited data

Results flagged for a closer look

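In 36 groups of 6 arrays (9 genes, 4 groups), the array at 1 end was set against its nearest neighbour, and chance alone marks about 1 group in 20. In 3 of the 36 the gap, as a share of the group's range, exceeded Dixon's critical value. The spleen of lymphoma mouse 4 had a Ccl19 level of 7.47, with a gap of 0.631 of the range; it is the array with the contradicting disease status code. The node of asymptomatic mouse 1 was low for Cxcl13, at 10.60 (gap 0.809 of the range), and for Cxcl12, at 7.19 (gap 0.820). It also had the lowest fibroblast gene mean of the asymptomatic nodes, 7.96, and was under the limit for transcripts of neighbouring organs.

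The lymphoma difference of S1pr3 was called as differing between node and spleen, by 2.58, in the limma fit with surrogate variables. With batch as a term in their place it was not called (limma adjusted p = 0.146). The measured means differed by -0.70 between lymphoma and asymptomatic nodes and by -2.10 between lymphoma and asymptomatic spleens, a difference of 1.40 between the tissues.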

How the results depend on the processing

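All 5 spleen calls for lymphoma against asymptomatic held in each of the 12 fits that left out 1 mouse, and in all other settings except Cxcr4 within batch A (0.78, adjusted p = 0.0970). Counts of the 9 genes called changed as follows. Lymphoma against asymptomatic node, with 6 in the main fit, gave 7 with batch as a term and 5 with batch and tissue scores. When mice were left out it gave 4 to 7. Asymptomatic against FVB/N spleen gave 0 without surrogate variables, with batch as a term, with batch and tissue scores, without the 2 spleens that carried pancreas transcripts and within batch A, 2 with mouse number as a fixed replicate block, and 0 to 1 when mice were left out. Lymphoma against FVB/N node gave 2 with the fixed replicate block and 3 to 6 when mice were left out. Node against spleen gave 1 in lymphoma mice without the spleen array of mouse 4 and 0 to 2 when mice were left out, 1 in asymptomatic and 2 in FVB/N mice without nodes that carried neighbouring-organ transcripts (1 node then stood for each of these states, assumed to vary like the other groups), and 2 to 3 in FVB/N mice when mice were left out. The test of the difference between tissues called S1pr3 alone. It called Ccl19 and Cxcl12 without surrogate variables, with batch as a term, without those 2 spleens, with the mouse as a random replicate block and batch as a term, and within batch B, and Ccl19 and S1pr3 with the low-value filter, with the mean of all probe sets and without the spleen array of lymphoma mouse 4 (2 genes each). It called 0 with batch and tissue scores, without those nodes (1 asymptomatic node left) and within batch A, and 0 to 2 when mice were left out. Over all genes that test gave 114 calls, 795 with batch as a term and 1384 with the random block added.

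Signs turned mainly where nothing was called. For lymphoma against asymptomatic spleens, Ccl19 gave 0.0151 without surrogate variables, with batch and with the fixed block, 0.0508 with tissue scores, 0.22 within batch B and -0.55 to 0.0061 when mice were left out. Cxcl12 gave -0.14 in those first 3 settings and without the 2 spleens, -0.0432 with tissue scores, -0.68 with the filter, -0.0142 with the mean of probe sets, -0.24 without the spleen of lymphoma mouse 4, -0.30 within batch B and -0.37 to 0.21 when mice were left out. S1pr2 gave -0.0089 with tissue scores, -0.11 within batch A and -0.13 to 0.18 when mice were left out. In node, S1pr3 gave -0.70 in the first 3 settings, -0.14 with tissue scores, -0.17 within batch A and -1.23 within batch B (adjusted p = 0.0399). Node against spleen in asymptomatic mice gave 0.22 for Cxcr4 without the left-out nodes and -0.19 to 0.10 when mice were left out, and Itga4 in spleen gave -0.0024 within batch A. Adding the mouse as a random replicate block to the surrogate variables (correlation 0.118) changed no call among the 9 genes, and mouse number as a fixed block in spleen kept 5 calls for lymphoma against asymptomatic. Of 475 values for the 9 genes under other settings, 380 kept their direction and side of the threshold. Scanner signal over background was not used here, so low levels such as spleen Ccl19 and Cxcl12 may be near background.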
